A study of Sus scrofa with 2 samples.

Results

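The myosin heavy chains are the motor proteins of the thick filament, and which of them a muscle fibre makes largely sets how fast it shortens. MYH7 is the slow chain, MYH2, MYH1 and MYH4 are the fast IIa, IIx and IIb chains, and MYH3 and MYH8 are the embryonic and perinatal chains that adult fibres replace around and after birth. In mammals the fast and developmental genes lie side by side in 1 cluster, and MYH7, which is also the beta chain of the heart, lies on another chromosome beside MYH6, the alpha chain of the heart.

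The entries were taken by symbol (MYH1, MYH2, MYH3, MYH4, MYH7 or MYH8) or by a myosin heavy chain in the protein description of the entry, from the 12535 entries with a read in either library. The search matched 12 entries, of which 1, described as the non-muscle chain Myr 8b, was left out, so that 11 remained. Only 3 of the 11 carried one of the symbols (MYH1, MYH2 and MYH7), and the others were named here by their matched protein. Counting reads over both libraries, 7 of the 11 entries had at least 20 reads and 4 had at most 9.

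The RNA came from biceps femoris, a muscle of the hind limb, of newborn piglets made by somatic cell nuclear transfer (cloning), sampled on Day 1 after birth. The abnormal cloned group was 1 pool of 3 piglets that showed developmental failure (a large tongue, failure to stand and walk, and a protruding navel), and the normal cloned group was 1 pool of 4 piglets by the methods and 3 by the sample labels. The 3 abnormal and 2 of the normal piglets were made from Day 35 embryonic fibroblasts of a male Large White pig. The other 2 normal piglets were made from ear fibroblasts, of Day 1 after birth, of another male Large White pig. Donor animal, donor tissue and donor age thus cannot be told apart from group. With 1 library per group no difference had a replicate check, the test compared the libraries and not the conditions, and in whole muscle fewer fibres of a type and less RNA per fibre cannot be told apart.

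The library of the abnormal cloned group held 6.38 M unique reads and that of the normal cloned group 6.52 M, and 3 reads, the limit taken for a count of 0, corresponded to 0.470 and 0.460 RPM (reads per 1 M reads). Reads were not counted by molecule, so all intervals cover counting error only. The 13 mitochondrial transcripts took 36.0% of the abnormal and 46.1% of the normal library. The median log2 ratio (abnormal over normal) of the entries with at least 10 reads in both libraries was 0.36, and values relative to that median are given beside the main ones. An entry was called at a false discovery rate of at most 0.001 in the Audic-Claverie test, a test on the reads of a pair of libraries, if it also differed by 2-fold or more.

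Of the 8 skeletal muscle markers 5 were found. Their summed RPKM (reads per kb of transcript, scaled to 1 M reads) was 40506 in the normal and 47316 in the abnormal library. Most of each sum was ACTA1, at 37387 and 42258 RPKM. NEB (402 and 1155) and ACTN2 (812 and 1834) were called higher, ACTN2 not after rescaling by the median ratio. TCAP was at 1895 and 2062 RPKM and RYR1 at 10.3 and 7.01, and neither was called. Of the 8 heart markers 5 were found, with a summed RPKM, in the same order, of 20.3 and 9.57, and NPPA, NPPB and TNNI3 were not matched. The heart marker MYH6 was itself a member, the second entry of the MYH7 locus, with 7 reads in the normal and 2 in the abnormal library. The summed RPKM was 436 and 395 for smooth muscle (7 of 8 found), 1510 and 1358 for fibroblasts (5 of 6) and 41.8 and 44.1 for endothelium (4 of 5). Fat cell markers summed to 2.20 and 2.09 (4 of 6), and nerve and Schwann cell markers to 18.7 and 29.6 (3 of 5). Markers of liver or plasma summed to 62.6 and 41.5 (5 of 6), and those of red blood cells to 693 and 480 (3 of 6). Immune cell markers summed to 5.81 and 3.22 (4 of 6). These 3 lists, like those of heart, smooth muscle, fibroblasts and fat cells, had the lower sum in the abnormal library. Most of the red blood cell sum was HBB, at 686 and 472 RPKM, while ALAS2 had 84 and 86 reads and SLC4A1 5 and 21. Among the immune markers PTPRC had 22 and 5 reads, CD14 37 and 21, LYZ 3 and 1, and ITGAM 10 and 15. Within the liver list ALB, the plasma albumin, had 271 reads in the normal and 12 in the abnormal library (log2 ratio -4.47), and AHSG had 34 and 0, and both were called lower, as MYH7 was, whereas APOA1 had 281 and 298. The part of these cells in the myosin values was not tested.

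The myosin heavy chains differed in composition between the libraries. The slow chain MYH7 was 11.5-fold lower in the abnormal cloned group, the entries for MYH4 and for a MYH1-like fragment were 7.29-fold and 5.29-fold higher, and the 4 abundant entries, MYH1, MYH2, MYH8 and MYH3, moved by less than 2-fold. Of the 11 entries 3 were called, 2 higher and 1 lower, where 13.5% of all 12535 entries were called, 12.0% higher and 1.45% lower. After rescaling by the median ratio the same 3 entries were called, against 6.48% of all entries called higher and 3.97% lower. With a variation of 0.4 assumed between libraries of the same group, that is between pools and not single piglets, the exact test of edgeR left 0 of the 3 calls. With 0.2 it left all 3. The share of all 12535 entries called at 0.4 or 0.2 was not counted, so these counts stand without it. The 10 entries of muscle chains held 114823 reads in the abnormal library, 1.80% of it (95% Wilson interval 1.79% to 1.81%), and 149003 reads in the normal library, 2.29% (2.28% to 2.30%). Their summed RPKM was 3801 and 4711.

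In the normal library the order of the RPKM levels was MYH1, MYH2, MYH8, MYH3, the MYH1-like fragment, MYH7 and MYH4. In the abnormal library the fragment stood above MYH3, and MYH4 above MYH7. MYH2 and MYH8, neighbours in that order, were at 556 and 555 RPKM in the normal library, and the fragment and MYH7 at 36.5 and 35.9. MYH1 ranked 24th of all entries by RPKM in the normal and 30th in the abnormal library.

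**Figure D1:**
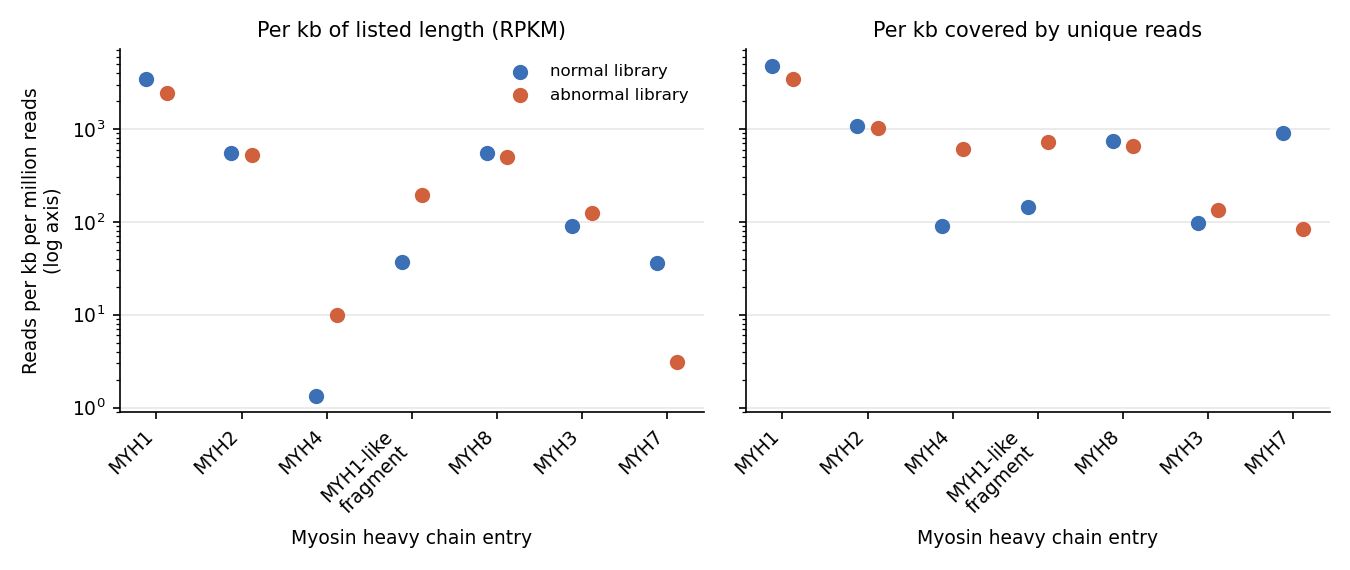
Level of the 7 myosin heavy chain entries with at least 20 reads in the normal (blue) and abnormal (orange) library, 1 point per library, on a log axis, per kb of listed length (left) and per kb covered by unique reads (right). MYH7 fell from 35.9 to 3.12 RPKM, while its normal level per covered kb, 903, was close to that of MYH2, 1070.

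The slow chain MYH7 (entry 396860, Sscrofa9 chromosome 7, 82139840 to 82161925, minus strand, 6022 bases) had 1407 reads in the normal and 120 in the abnormal library, or 35.9 and 3.12 RPKM. The log2 ratio was -3.52 (95% interval -3.79 to -3.25), and -3.88 relative to the median of all entries. The entry was called lower. These reads lay on a small piece of the transcript: 3.97% of its bases were covered in the normal and 3.75% in the abnormal library, about 239 and 226 bases, although the read number differed more than 11-fold between them.

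The same locus was listed again as ENSSSCG00000002029 (82138818 to 82161908), matched to the same protein. That entry had 7 reads in the normal and 2 in the abnormal library, and the interval of its log2 ratio, -3.86 to 0.31, included 0. A current gene table gives its Ensembl number the name MYH6. The tables count only uniquely mapped reads, whereas RPKM divides by the whole listed length, and whether reads shared by these entries account for the small covered share was not tested.

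Among the 3435 entries with at least 200 reads over both libraries, the median share of covered bases was 84.5% in the normal and 90.5% in the abnormal library. Only 5 of these entries were covered under 5% in both libraries, and 2 of the 5 were MYH7 and MYH4. MYH2 was covered to 52.0% and 51.6% in the normal and abnormal library, MYH1 to 71.9% and 71.6%, MYH8 to 75.7% and 75.9%, and MYH3 to 91.5% and 93.7%. The covered share of each chain was thus nearly equal in the libraries but differed widely between the chains, so that RPKM compares a chain between the libraries on a like covered length, and different chains on unlike ones.

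**Figure D2:**
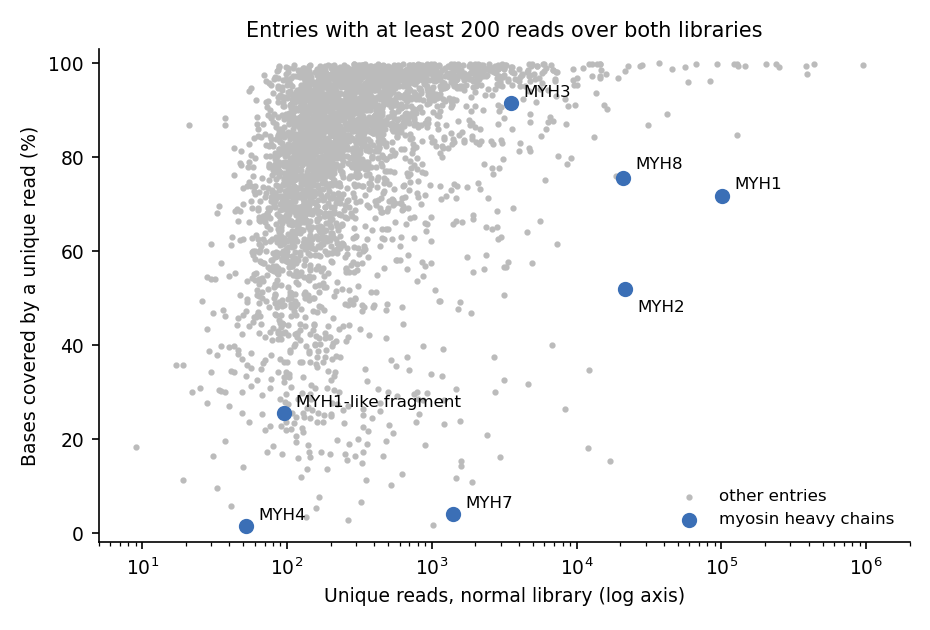
Percent of bases covered by a unique read against the number of unique reads in the normal library (log axis), for entries with at least 200 reads over both libraries, 1 of which had no coverage value. Of the myosin heavy chains (blue), MYH7 at 3.97% and MYH4 at 1.48% lie near the bottom of the plot, among few other entries (grey).

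The RPM per covered kb, added after the data were seen, was 903 for MYH7 in the normal and 83.3 in the abnormal library. On that scale MYH7 stood in the normal library between MYH2 (1070) and MYH8 (733), and last of the 7 entries in the abnormal library. This scale was not corrected for read length, which lowers the value of a short covered piece beside that of a long one. The place of MYH7 among the longer covered chains is therefore not exact.

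Of the heart markers found that were no members, MYL7 was the sole one lower in the abnormal library, as MYH7 was. MYL7, the atrial light chain, had 78 reads in the normal and 31 in the abnormal library and was called lower (log2 ratio -1.30, 95% interval -1.90 to -0.70). MYBPC3, the heart form of myosin-binding protein C, had 0 and 2 reads, RYR2 had 10 and 13, and GJA5 had 7 and 11. The marker MYH6 was the second entry of the MYH7 locus and so gave no separate value. The study placed MYL2 (as MLC2V), MYL3 and TPM3 in a hypertrophic cardiomyopathy pathway, and these are described below with the slow-fibre genes. MYL2 and MYL3 were called lower (log2 ratios -3.02 and -3.04), and so was the TPM3 entry with most reads (-2.61). The part of heart-type genes in the MYH7 value was not tested.

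The fast chain MYH1 was the most abundant. Its entry (100125538, chromosome 12, 52298246 to 52315949, plus strand, 4529 bases) had 101411 reads in the normal and 70560 in the abnormal library, or 3436 and 2443 RPKM. The log2 ratio of -0.49 (95% interval -0.51 to -0.48) lay outside 0 but within 2-fold, and was -0.85 relative to the median. The name rests on the symbol and the matched pig protein, myosin-1, whereas the Ensembl number of this entry, ENSSSCG00000018005, is now named MYH8 in the gene table, so the identity of the most abundant entry is uncertain. It was also the sole entry of the cluster with more than 1 read that was placed on the plus strand.

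MYH2, the IIa chain (entry 397256, chromosome 12, 52326087 to 52350442, minus strand, 5932 bases), had 21486 reads in the normal and 19921 in the abnormal library, or 556 and 527 RPKM. Its log2 ratio was -0.08 (95% interval -0.11 to -0.05) and -0.44 relative to the median, and it was not called. Of the fast chains with many reads it was the one with the smallest difference.

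MYH4, the IIb chain (entry ENSSSCG00000018003, chromosome 12, 52264954 to 52348944, minus strand, 5929 bases), had 52 reads in the normal and 371 in the abnormal library, or 1.35 and 9.81 RPKM. It was called higher, with a log2 ratio of 2.87 (95% interval 2.45 to 3.28) and 2.51 relative to the median. These reads covered 1.48% and 1.60% of the transcript, about 88 and 95 bases. MYH4, MYH2 and MYH8 were 3 entries of a single Ensembl gene in this build, whose coordinates overlap.

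The MYH1-like fragment (ENSSSCG00000018006, chromosome 12, 52321065 to 52323264, 399 bases), matched to a partial myosin-1-like protein, had 95 reads in the normal and 492 in the abnormal library, or 36.5 and 193 RPKM. It was called higher, with a log2 ratio of 2.40 (95% interval 2.09 to 2.72). It lay between the entries of MYH1 and MYH2, and its covered piece was about 102 and 108 bases. Both entries called higher thus rested on pieces of about the size of this one, while the entries with at least 3061 covered bases in both libraries differed by less than 2-fold.

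**Figure D3:**
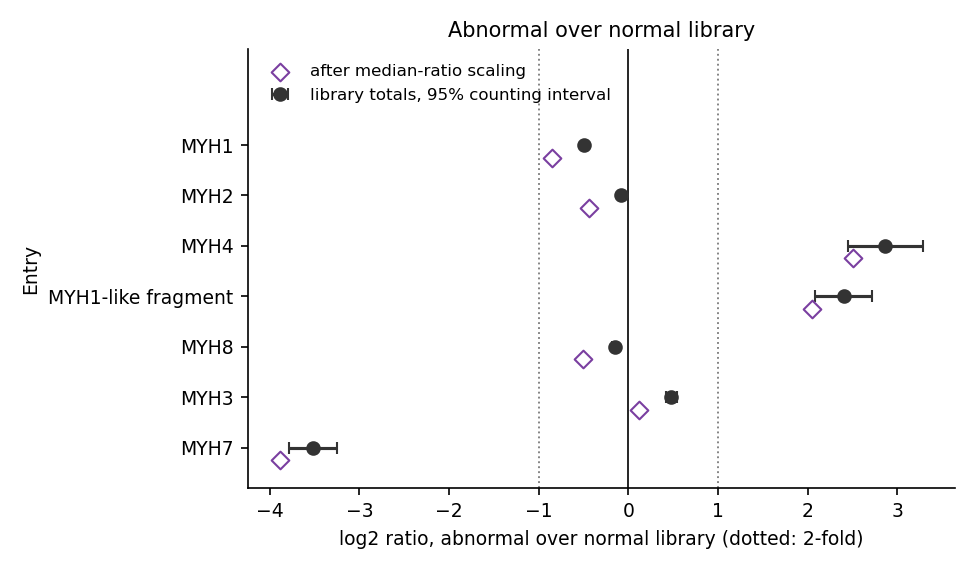
log2 ratio (abnormal over normal library) of the 7 entries with at least 20 reads, with 95% counting intervals (black) and after rescaling by the median ratio (open diamonds); dotted lines mark 2-fold. MYH7 lies at -3.52, MYH4 at 2.87 and the MYH1-like fragment at 2.40, and the other 4 entries lie within 2-fold.

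The perinatal chain MYH8 (entry LOC100517423, chromosome 12, 52210223 to 52348947, minus strand, 5814 bases) had 21014 reads in the normal and 18543 in the abnormal library, or 555 and 500 RPKM. The log2 ratio was -0.15 (95% interval -0.18 to -0.12), and -0.51 relative to the median. A short piece matched to the same protein, ENSSSCG00000018004 (180 bases), had 1 read in the normal and 0 in the abnormal library, too few for a ratio.

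The embryonic chain MYH3 (entry 396711, listed as MYHC, chromosome 12, 52423328 to 52445403, minus strand, 6056 bases) had 3529 reads in the normal and 4812 in the abnormal library, or 89.4 and 125 RPKM. It was the one full-length chain of the cluster with the higher level in the abnormal library besides MYH4, at a log2 ratio of 0.48 (95% interval 0.42 to 0.54). It was not called, and relative to the median of all entries the log2 ratio was 0.12. The direction was kept under the 4 rescalings tried, with the lowest value, 0.09, under TMM.

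The 7 entries of the cluster spanned 52210223 to 52445403 on chromosome 12. Outside it, ENSSSCG00000007288 (chromosome 17, 40401643 to 40416754), matched to MYH7B, a slow-type chain, had 1 read in the normal and 2 in the abnormal library. ENSSSCG00000005182 (chromosome 1, 215980480 to 216284203) was matched to a dog protein called similar to myosin-3, but is now named CCDC171, a coiled-coil gene, and had 5 and 1 reads. The latter was not counted among the muscle chains.

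The composition followed these levels. By RPKM MYH1 made up 72.9% of the summed muscle chains in the normal and 64.3% in the abnormal library. MYH2 made up 11.8% and 13.9%, MYH8 11.8% and 13.2%, and MYH3 1.90% and 3.28%. The MYH1-like fragment made up 0.776% and 5.09%, and MYH4 0.0286% and 0.258%. MYH7 made up 0.761% in the normal and 0.0822% in the abnormal library. These shares do not depend on how the libraries are scaled to each other, but they do depend on how the length is counted. Per covered base MYH4 made up 1.16% in the normal and 9.23% in the abnormal library, and the MYH1-like fragment 1.82% and 10.7%.

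Counted in reads, MYH7 took 0.944% of the muscle chain reads in the normal library (95% Wilson interval 0.896% to 0.995%) and 0.105% in the abnormal library (0.0874% to 0.125%). MYH4 took 0.0349% (0.0266% to 0.0458%) and 0.323% (0.292% to 0.358%). In both cases the intervals of the libraries lay far apart.

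For each 100 units of RPKM of the fast chains MYH1, MYH2 and MYH4 there were 0.898 units of MYH7 in the normal and 0.105 in the abnormal library, an 8.56-fold difference. In reads the difference was 8.66-fold (95% interval 7.19 to 10.4). Per covered base the slow chain was much less rare, at 15.2 per 100 in the normal and 1.65 in the abnormal library, and the difference between the libraries was 9.20-fold. The share of MYH7 in all muscle chains was then 11.5% and 1.25%, against 0.761% and 0.0822% by RPKM. The size of the slow share thus rested on how the length was counted, and its difference between the libraries did so much less.

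The developmental chains MYH3 and MYH8 together made up 13.7% of the summed RPKM in the normal and 16.4% in the abnormal library. If entry 100125538 was counted as MYH8, the present name of its Ensembl gene, they made up 86.6% and 80.7%, so that both the size and the direction of this difference rested on the identity of 1 entry. The slow to fast difference was then 11.0-fold.

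**Figure D4:**
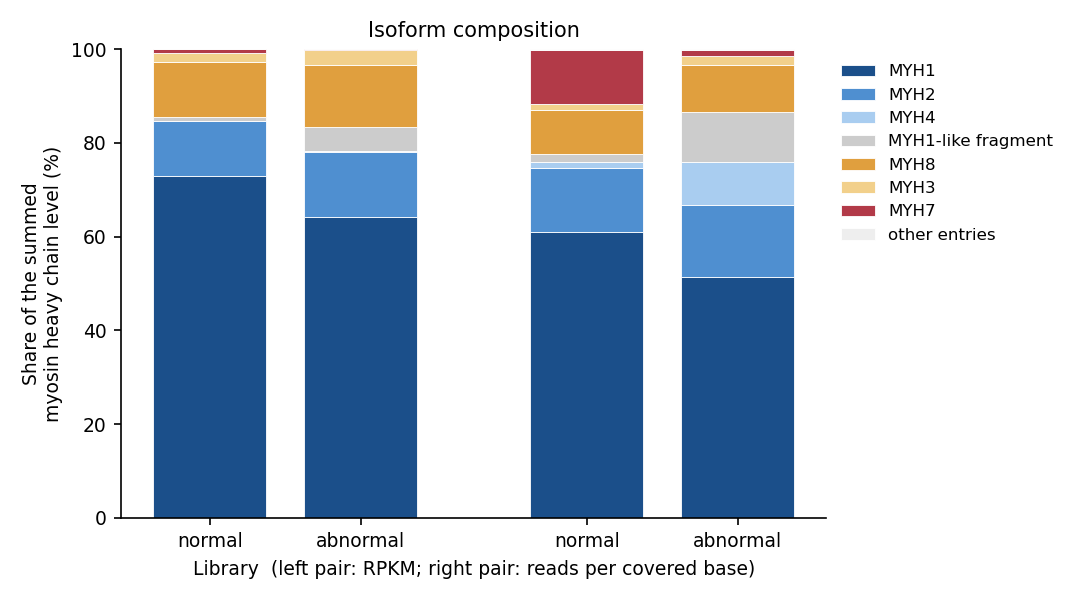
Share of each entry in the summed level of the myosin heavy chains, as stacked bars for the normal and abnormal library, from RPKM (left pair) and from reads per covered base (right pair). MYH1 is the largest share in all 4 bars, and MYH7 makes up 0.761% and 0.0822% by RPKM but 11.5% and 1.25% per covered base.

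The gene lists below set the chains beside other genes of the same fibres, and were counted against the 12.0% of all entries called higher and the 1.45% called lower. The median log2 ratio was -0.08 over the 7 myosin heavy chain entries with at least 20 reads over both libraries, and 0.39 over the 8140 such entries of the whole table.

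Of the 16 slow-fibre genes 10 were matched by name, of which 3 were called lower, 1 higher and 6 were not called. MYH7B, among those not called, was the member entry with 1 read in the normal and 2 in the abnormal library, too few for a call. A further entry matched to myosin-7B but not in this list, LOC100155469, had 425 and 101 reads and was called lower. The median log2 ratio was -0.15 over the 9 with at least 20 reads. The 3 lower genes were TNNC1, the slow troponin C, with 21598 reads in the normal and 2336 in the abnormal library, MYL3, a slow essential light chain, with 22648 and 2694, and MYL2, the slow regulatory light chain that binds MYH7, with 56299 and 6779. Their log2 ratios were -3.18, -3.04 and -3.02, and the covered share in the normal library was at least 98.3% for each, unlike that of MYH7. TNNC1 was 9.05-fold, MYL3 8.23-fold and MYL2 8.13-fold lower in the abnormal library, against 11.5-fold for MYH7, and these differences among the 4 genes were not tested.

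The tropomyosin TPM3 of slow fibres was listed as 2 entries of the same Ensembl gene. The entry with the symbol had 11 reads in the normal and 10 in the abnormal library, whereas ENSSSCG00000006556, which carried no symbol and was matched to tropomyosin 3, had 12077 and 1933. The latter was called lower, with a log2 ratio of -2.61 (95% interval -2.68 to -2.54) and a covered share of 18.0% and 18.8%. With the entry of most reads taken for each Ensembl gene, a choice made after the data were seen, 4 slow-fibre genes were called lower, 1 higher and 5 were not called, and the median log2 ratio was -0.52.

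MYBPC1 and CA3 differed little. MYBPC1, the slow myosin-binding protein C, had 28176 and 25038 reads (log2 ratio -0.14), and CA3, a carbonic anhydrase of slow fibres, had 4750 and 4186 (-0.15). LMOD2, a leiomodin that acts at thin filament ends, was called higher, with 2805 and 7376 reads and a log2 ratio of 1.43, a call that was lost with an assumed variation of 0.2. TNNT1 and TNNI1, the other slow troponins, were not matched by symbol and not analysed here.

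Of the 16 fast-fibre genes 10 were matched, 1 was called higher, 0 lower and 9 were not called, with a median log2 ratio of 0.58. The called gene was PVALB, the calcium-binding parvalbumin of fast fibres, with 1429 reads in the normal and 5372 in the abnormal library (log2 ratio 1.94). ATP2A1, the fast calcium pump, stood at 0.89, ENO3, the muscle enolase, at 0.63, and CASQ1, the fast calsequestrin, at 0.55. MYLPF, the fast regulatory light chain, stood at 0.13 and TNNC2, the fast troponin C, at -0.25, and MYLPF took a negative sign under each of the 4 rescalings. The fast chains MYH1 and MYH2 had negative log2 ratios and MYH4 a positive one.

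**Figure D5:**
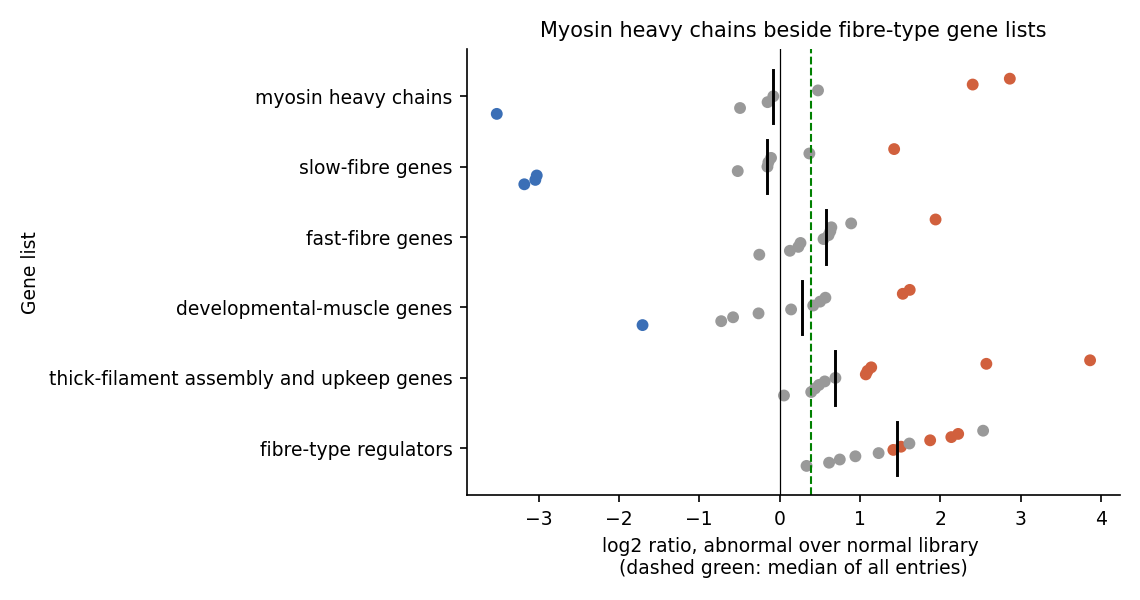
log2 ratio (abnormal over normal library) of each gene with at least 20 reads over both libraries, by list, with genes called higher in orange, called lower in blue and not called in grey. Black bars mark list medians and the dashed green line the median of all entries, 0.39. MYH7 lies left of the 3 lowest slow-fibre genes. TPM3 is drawn by the entry with the symbol (log2 ratio -0.11) and not by that with most reads (-2.61). With the entry of most reads for each Ensembl gene the slow-fibre median is -0.52 in place of -0.15.

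Of the 14 developmental-muscle genes 10 were matched, 2 were called higher, 1 lower and 7 were not called, with a median log2 ratio of 0.28. MYF5, an early myogenic factor, had 130 reads in the normal and 391 in the abnormal library (log2 ratio 1.62), and CHRNA1, the acetylcholine receptor alpha subunit, had 42 and 119 (1.53). MYL4, the embryonic light chain, was called lower with 140 and 42 reads (-1.71). ACTC1, the fetal and heart actin, stood at 0.14, with a negative sign under the 4 rescalings, and MYOG, which encodes myogenin, at 0.42. CDH15, a cadherin of muscle precursors, stood at -0.73 and was called lower after rescaling by the median ratio (-1.09) or TMM (-1.12). DLK1 stood at -0.26 by the entry with the symbol and at 0.27 by a further entry of the same Ensembl gene.

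Of the 18 genes of thick-filament assembly and upkeep 11 were matched, of which 5 were called higher, 0 lower and 6 were not called, with a median log2 ratio of 0.69. FBXO32, a ubiquitin ligase subunit of muscle wasting, had 50 reads in the normal and 713 in the abnormal library (3.86), and CRYAB, a small heat-shock protein, had 4730 and 27563 (2.57). SMYD1 (1.14), a methyltransferase that acts in myosin assembly, and the myosin chaperones HSP90AB1 (1.09) and HSP90AA1 (1.07) were called by library totals but not after any of the 4 rescalings, which left 2 calls. MYOM1, a myomesin of the M-band, stood at 0.69 and MYOM2 at 0.05, the latter with a negative sign under the 4 rescalings.

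Of the 21 fibre-type regulators 17 were matched, 5 were called higher, 0 lower and 12 were not called. The median log2 ratio was 1.46 over the 12 with at least 20 reads. TBX15, a T-box factor of glycolytic fibres, had 123 reads in the normal and 562 in the abnormal library (2.22), and RCAN1, a calcineurin inhibitor, had 114 and 491 (2.14). MEF2D (1.87) and MEF2C (1.42), muscle transcription factors, and PRKAA2 (1.51), a catalytic subunit of AMP-activated kinase, were also called higher. PPP3CA, the catalytic subunit of calcineurin, had 1 and 3 reads, and NFATC1, its target, 0 and 3, so a difference was not detectable at this depth.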

How the data were processed

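Poly(A) RNA of 2 pools was sequenced as 1 library each. Per the methods, adaptors and poor reads were removed and the authors mapped the rest with SOAPaligner/soap2, allowing at most 2 mismatches; the deposited entries are transcripts placed on Sscrofa9. The authors deposited counts of uniquely mapped reads, without normalization, the RPKM of each transcript, and the percent of its bases covered. Entries absent from a table were taken as 0 reads.

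The Audic-Claverie test (two-sided by doubling, Benjamini-Hochberg adjustment over all 12535 entries) was applied to the counts. It was tested on counts simulated without variation between pools, so that trial cannot show how often such variation alone would give a call. For calls and list medians a count of 0 was set to 3 reads, and no such ratio is printed. Intervals are 95% Wilson intervals, for a log2 ratio those of the share of an entry's reads that lay in the abnormal library. The exception is the fold of the slow to fast read ratio, whose 95% interval is a normal approximation on the log scale from the read counts. Gene lists (5 of muscle genes, and markers of 10 tissues or cell types) were matched by symbol or by gene number through RefSeq and Ensembl name tables, taking the entry with most reads among those so named. Entries that carried no symbol but shared an Ensembl gene with a matched entry were added in an alternative. Members and lists were chosen with earlier results of these data known. Named genes were all members and, of each list, the 5 highest summed RPKM values and up to 5 called genes with the largest log2 ratios. One gene that this rule names is not reported here. Alternatives were median-ratio, TMM (edgeR 4.0.16) and GAPDH scaling, totals without mitochondrial transcripts, Fisher's test, the edgeR exact test at an assumed variation (its quasi-likelihood test could not be fitted to 1 library a group), a minimum of 10 reads and a pseudocount of 1. Python 3.11.15, scipy 1.17.1 and R 4.3.3 were used. No sequences of the chains are printed.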

Additional observations from a re-analysis of the deposited data

How the results depend on the processing

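No paired analysis was possible because each group had 1 library. The 3 myosin heavy chain calls remained under the rescalings, Fisher's test, the read minimum, the pseudocount and the edgeR exact test at an assumed variation of 0.2, and 0 remained at 0.4. At 0.4, 0 genes of the slow-fibre, fast-fibre, developmental-muscle, thick-filament and regulator lists were called. At 0.2, 3 slow-fibre genes (without LMOD2), 1 fast-fibre gene, 0 developmental-muscle genes, 2 thick-filament genes and 3 regulators were called. The share of all entries called at 0.4 or 0.2 was not counted, so these counts stand without it. With the entry of most reads taken for each Ensembl gene, chosen after seeing the data, 5 slow-fibre genes were called in place of 4, with TPM3 lower, and the other 4 lists kept their counts. The developmental-muscle list had 4 calls, with CDH15 lower, under median-ratio and TMM scaling. The thick-filament list had 2 calls under median-ratio, TMM and GAPDH scaling and without mitochondrial transcripts. Under these 4, in that order, the log2 ratio turned to -0.23, -0.27, -0.086 and -0.12 for MYLPF, to -0.22, -0.25, -0.071 and -0.10 for ACTC1, and to -0.31, -0.34, -0.16 and -0.19 for MYOM2.

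The share of MYH1, 64.3% and 72.9% (abnormal first, as below), was 61.5% and 68.1% in reads, 82.2% and 85.3% among entries named by symbol, and 51.4% and 61.0% per covered base. MYH7 per 100 fast chains, 0.105 and 0.898, was 0.132 and 1.14 in reads, 1.65 and 15.2 per covered base, and 0.583 and 6.44 with entry 100125538 as MYH8. The developmental share, 16.4% and 13.7%, was 20.3% and 16.5% in reads, 11.9% and 10.6% per covered base, and 80.7% and 86.6% with that entry as MYH8, which reversed its direction. Among entries named by symbol it had no value. The last 2 settings were chosen after seeing the data. Division by the RefSeq coding length was not run, as no protein table was used here. Differences in entries of at most 9 reads were not detectable at this depth.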

Other observations

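Of the non-muscle myosin heavy chain entries below, which were no members, some also differed between the libraries. Those of the MYH9 and MYH10 kind build contractile bundles in many cell types. The entries were chosen after their values were seen. MYH10 (entry LOC396903, chromosome 12, 50708384 to 50819330) had 357 reads in the normal and 1872 in the abnormal library, a log2 ratio of 2.42 (95% counting interval 2.26 to 2.58), and was called higher also after rescaling by the median ratio (2.06). For MYH9 (entry LOC396904, chromosome 5) the counts were 107 and 258 and the log2 ratio 1.30, and for a further entry matched to myosin-9 (LOC100152053) they were 172 and 339 and the log2 ratio 1.01. Both were called by library totals and not after rescaling, at 0.94 and 0.65. The entry matched to myosin-14 (ENSSSCG00000003208) had 210 and 196 reads (log2 ratio -0.07, interval -0.35 to 0.21) and was not called. The Myr 8b entry had 2 and 12 reads and was not called.

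Further pieces matched to myosin-7B lay beside the MYH7B entry on chromosome 17 and fell outside the search because of their wording. LOC100155469 (40467745 to 40472776) had 425 reads in the normal and 101 in the abnormal library and was called lower, with a log2 ratio of -2.04 (95% counting interval -2.35 to -1.73). ENSSSCG00000007287 (40381825 to 40398793), which the gene table now names GSS, was counted at 95 and 118 reads (log2 ratio 0.34, interval -0.04 to 0.73). Pieces assigned to 1 protein thus gave different ratios, and which of them holds MYH7B was not tested.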
